A study of Homo sapiens with 2 samples.

Results

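The genes described here are the cytokines, chemokines and interleukins, the tumor necrosis factor (TNF) superfamily, and the receptors of these ligands, in RMG1 cells. They were taken by gene name: CXCL, CXCR, CCL, CCR or IL followed by a number, any TNFSF or TNFRSF gene, and TNF, LTA, LTB, LTBR, LIF, LIFR, OSM, OSMR, CSF1, CSF2, CSF3, CX3CL1 and CX3CR1. The rule took 245 of the 34127 gene probes of the array and 191 of its 27267 genes, of which 102 were ligands, 83 receptors, 4 inhibitors and 2 neither. IL8 of the array is written CXCL8, its present symbol.

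RMG1 is an established human ovarian cancer cell line. Its cells were grown with serum in culture, stained by the ALDEFLUOR assay, which makes cells with aldehyde dehydrogenase (ALDH) activity fluoresce, and sorted into ALDH+ and ALDH- cells. Total RNA of both populations was hybridized together to an oligonucleotide array with probes of 60 bases, on 2 arrays with exchanged dyes. ALDH+ cells were labeled with Cy5 on the first array and with Cy3 on the second. Both populations came from 1 cell line with no treatment, and the sample labels and the study's results name RMG1 where its methods name AMOC2. Since the RNA on the 2 arrays was the same, there was 1 sample per population. No test could be run, no p-value is given, and the SD between the arrays covers technical spread only. In RNA of a whole population, fewer cells with a transcript and less of it per cell cannot be told apart.

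Cytokines are secreted or membrane-bound proteins that act on cells through matching receptors, often on the cell that made them. Chemokines of the CXCL1, CXCL2 and CXCL8 type attract neutrophils through CXCR1 and CXCR2. TNF and lymphotoxin activate NF-κB through their receptors, and interleukin 6 activates STAT3 through IL6R and the shared subunit gp130, encoded by IL6ST. In ovarian cancer, interleukin 6, TNF and CXCL8 are known products of the tumor cells themselves.

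Most of the genes that were higher in ALDH+ cells were ligands. The ligands LTB, TNF, CXCL1 and CXCL8 were more than 2-fold higher in ALDH+ cells, with CXCL2, IL23A, IL6 and IL18 more than 1.5-fold higher. LTB and TNF stayed past 2-fold on each array and under every other processing tried. CXCL1 (lowest log2 ratio 0.81) and CXCL8 (0.83) did not. CXCL14 was the ligand more than 2-fold lower. Among the receptors, TNFRSF25 was more than 2-fold lower, and IL4R and TNFRSF10D more than 1.5-fold lower, whereas the decoy receptor TNFRSF11B was more than 1.5-fold higher. LTBR and TNFRSF1A, through which LTB and TNF act, had mean log2 ratios of -0.07 and -0.04.

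Probes are shown first for the ligands past 2-fold that had only 1 measured probe, because its value alone stands for the gene. The opening 30 bases of each 60-base probe are printed 5′ to 3′, in the sense of the transcript.
LTB: ggaaattgattttgaacctgatgaaaataa
TNF: ggggtatcctgggggacccaatgtaggagc
CXCL8: tagattcttataatattatttaaatgactg
CXCL14: acgaagaatagggtgaaaaacctcagaagg
In hg19 the whole LTB probe lies at chr6:31548335-31548394 on the minus strand and the TNF probe at chr6:31545837-31545896 on the plus strand. The CXCL8 probe lies at chr4:74609265-74609324 on the plus strand and the CXCL14 probe at chr5:134907494-134907553 on the minus strand. LTB, TNF, CXCL8 and CXCL14 had 1 measured probe each. Without a transcript annotation of this build, the exon or untranslated region of a probe is not given.

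CXCL1 and CXCL2 are close paralogs, and each had a second measured probe in a shared stretch of its transcript. These probes are printed whole, with the bases at which they differ within their overlap in capitals.
CXCL1: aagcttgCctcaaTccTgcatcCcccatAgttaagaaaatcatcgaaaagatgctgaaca
CXCL2: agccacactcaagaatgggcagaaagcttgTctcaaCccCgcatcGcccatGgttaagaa
They lie at chr4:74735646-74735705 on the plus strand and chr4:74964342-74964401 on the minus strand of hg19. Aligned without gaps they overlapped by 37 bases, of which 32 matched and 5 differed. Signal of either gene on the other's probe cannot be told apart here for these dimmer probes. The brighter probes, which stand for the genes, lie elsewhere in the transcripts and were not aligned.

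A gene was called measured when a probe was well above background on both arrays in ALDH+ cells, in ALDH- cells, or in both, and its brightest such probe stood for it. Of the 191 genes, 61 were measured, which were 23 ligands, 37 receptors and the inhibitor IL1RN. In 48 of them the probe met this criterion in ALDH+ and in ALDH- cells, and the other 13 met it in 1 population only. The other 130 genes were not measured, which sets no level for them. Between the arrays, the ratios of the 61 genes correlated with a Pearson's r of 0.85, against 0.69 for all 13718 measured genes, as a description over genes that share both extracts. The median SD between the arrays was nonetheless larger for the 61 genes, at 0.145, against 0.111 for all measured genes. The largest SD between the arrays was 0.47, for the brightest probe of IL17RA, and no measured member was saturated.

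Of the 13718 genes measured on the array, 0.211% were more than 2-fold higher and 0.707% more than 2-fold lower in ALDH+ cells. Past 1.5-fold these shares were 1.51% and 4.59%. Among the 61 measured members, the ratios of 4 were past 2-fold upward and of 2 downward, and with median centering in place of loess 5 were higher and 1 lower. At 1.5-fold 10 were higher and 4 lower. The 10 that were higher comprised 8 of the 23 measured ligands (34.8%), 1 of the 37 measured receptors (2.70%) and the inhibitor. CXCL8, one of the 8, met the criterion in ALDH+ cells only, where it was higher, and it was not counted when both populations had to meet it, which left CXCL1, LTB and TNF past 2-fold upward. The 4 that were lower comprised 1 ligand (4.35%) and 3 receptors (8.11%).

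On both arrays the ratio was above 0 for 13 ligands and below 0 for 5, whereas for 5 ligands the arrays disagreed in sign. For the receptors, 8 were above 0 on both arrays, 12 below, and 17 disagreed. Some counted genes were measured only through the population where they were higher, so their direction is tied to the filter. These were CXCL8, IL2RG, TNFRSF8 and TNFRSF13C above 0, and IL11, TNFRSF1B and IL31RA below 0. Over all measured genes 33.7% were above 0 and 36.1% below 0 on both arrays. The median log2 ratio of the measured ligands was 0.20, against -0.0023 over all measured genes. That of the measured receptors was -0.053, and it was 0.021 with median centering in place of loess, which moved the median of all genes to 0.073. The receptor median was -0.12 on the first array alone and 0.0041 on the second, against 0.0048 and -0.021 over all measured genes. With no filter on dim probes, the median of all 102 ligands was 0.024.

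**Figure D1:**
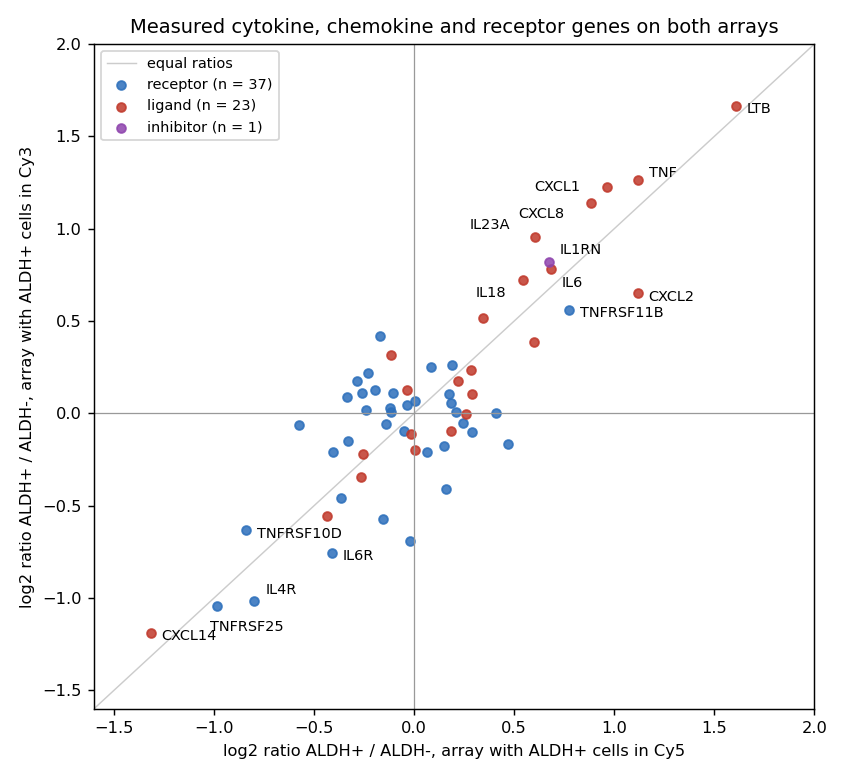
Log2 ratio of ALDH+ to ALDH- cells for the 61 measured genes, with Cy5 (x axis) or Cy3 (y axis) as the dye of ALDH+ cells. Each point is 1 gene, colored by role, and genes past about 1.5-fold are labeled. LTB (1.61 and 1.66) lies farthest from 0 at the upper right and CXCL14 (-1.32 and -1.19) at the lower left, and the points near 0 are scattered off the line of equal ratios.

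Among ligands of the TNF superfamily, LTB and TNF were the most different. LTB encodes lymphotoxin beta, which anchors lymphotoxin alpha to the membrane as the ligand of LTBR. Its normalized log2 intensity was 9.67 in ALDH+ and 8.06 in ALDH- cells on the first array, and 9.66 and 7.99 on the second. The ALDH+ values were higher than the ALDH- values by more than 1.5 log2 units on both arrays. The ratios of 1.61 and 1.66 gave a mean of 1.64 ± 0.04 (SD, 2 arrays), which is 3.11-fold, and LTB ranked 4 of the 13718 measured genes. TNF, the founding cytokine of the family, had a log2 intensity of 10.41 in ALDH+ and 9.29 in ALDH- cells on the first array, and of 10.49 and 9.23 on the second. Both arrays gave the higher signal to ALDH+ cells, whichever dye they carried. The mean log2 ratio of TNF was 1.19 ± 0.10, or 2.28-fold, and it ranked 13.

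TNF and LTB are neighbors on chromosome 6, with LTA, which encodes lymphotoxin alpha, beside them. LTA was not measured. Of the 14 ligands of the superfamily on the array 4 were measured. TNFSF9, the ligand of the costimulatory receptor 4-1BB, had log2 ratios of 0.60 and 0.38, below 1.5-fold in the mean (0.49). TNFSF10, which encodes the death ligand TRAIL, had 2 measured probes that disagreed. The brightest, with 1 spot, had log2 ratios of -0.04 and 0.12 (mean 0.04), and the probe with 10 spots had 0.86 and 0.33 (mean 0.59 ± 0.38). The direction of TNFSF10 was therefore not settled by these arrays.

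Of the receptors of TNF and LTB, TNFRSF1A and LTBR differed little between the populations. TNFRSF1A, the broadly expressed TNF receptor, had log2 intensities of 9.0 in ALDH+ and 9.12 in ALDH- cells on the first array, and of 9.08 and 9.05 on the second. The difference was small and changed sign between the arrays (-0.12 and 0.03). LTBR had 10.98 and 11.03 on the first array and 10.90 and 11.00 on the second, a mean log2 ratio of -0.07 ± 0.03. With median centering both mean ratios turned slightly positive, to 0.03 for TNFRSF1A and 0.08 for LTBR, while the median of all measured genes was 0.073. TNFRSF1B, the TNF receptor typical of immune cells, was not well above background in ALDH+ cells on either array, so its size of difference is not known. Taking the lowest signal among probes well above background as the level of the dim population gave ALDH- cells at least 1.05-fold higher, and its log2 ratio ran from -0.39 with the software's ratio to -0.030 with no background correction, which is less than that limit.

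Of the 22 receptors of the TNF superfamily 13 were measured. Of these, 2 (15.4%) were more than 1.5-fold lower and 1 (7.69%) higher in ALDH+ cells, against 4.59% and 1.51% of all measured genes. TNFRSF25, death receptor 3, which binds TNFSF15, had log2 intensities of 9.98 in ALDH+ and 10.96 in ALDH- cells on the first array, and of 9.97 and 11.01 on the second. ALDH- cells had the higher signal by about 1 log2 unit on both arrays. Its mean log2 ratio was -1.01 ± 0.04, which is 2.02-fold lower and just past the threshold, and with no background correction (-0.99) or median centering (-0.88) it fell short of it. A second TNFRSF25 probe, for another transcript variant, was not measured, nor was TNFSF15. TNFRSF10D, a decoy receptor of TRAIL with a truncated death domain, had 9.47 and 10.31 on the first array and 9.61 and 10.25 on the second. It was lower in ALDH+ cells on both, by a mean of -0.74 ± 0.15.

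The signaling TRAIL receptor TNFRSF10B had log2 ratios of -0.16 and -0.57, and TNFRSF10A -0.12 and 0.01. The decoy TNFRSF10C had 0.47 and -0.16, opposite in sign on the arrays. The log2 ratios of TNFRSF12A, the receptor of TWEAK, were -0.58 and -0.06, with a mean of -0.32 that turned to 0.04 with median centering. In that setting the median of all measured genes was 0.073. TNFRSF11B encodes osteoprotegerin, a secreted decoy receptor of RANKL and TRAIL. Its log2 intensities were 12.99 in ALDH+ and 12.22 in ALDH- cells on the first array, and 12.86 and 12.30 on the second. It was the measured receptor with the highest ratio, 0.67 ± 0.15 or 1.59-fold.

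Among CXC chemokines, CXCL1, CXCL8 and CXCL2 were the higher ones. All are ligands of CXCR2, as is CXCL5, which was not higher. CXCL1 had log2 intensities of 9.94 in ALDH+ and 8.98 in ALDH- cells on the first array, and of 10.02 and 8.79 on the second. All ALDH+ values exceeded all ALDH- values by nearly 1 log2 unit or more. The mean ratio was 1.09 ± 0.19, or 2.13-fold, whereas the dimmer CXCL1 probe printed above had ratios of 0.84 and 0.22, with a mean of 0.53 ± 0.43. CXCL2 had 9.61 and 8.5 on the first array and 9.45 and 8.80 on the second, a mean ratio of 0.88 ± 0.33 or 1.84-fold. The dimmer CXCL2 probe printed above had a mean of 0.61 ± 0.10. For both genes both probes were higher in ALDH+ cells on each array, by amounts that differed.

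CXCL8, interleukin 8, was close to background in ALDH- cells. It had log2 intensities of 7.61 in ALDH+ and 6.72 in ALDH- cells on the first array, and of 7.59 and 6.45 on the second, a mean ratio of 1.01 ± 0.18 or 2.01-fold. The probe was well above background on both arrays in ALDH+ cells, but on 1 array in ALDH- cells. On the first array its raw ALDH- signal was 161.8, against a median of 135.2 for the negative control spots in the same dye. The fold of CXCL8 depended on how background was treated: its log2 ratio was 0.83 with no background correction, 1.47 with an offset of 10 and 2.81 with the ratio of the array software. ALDH+ cells were the higher population in each.

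CXCL14, a chemokine of epithelia, went the other way. Its log2 intensities were 8.84 in ALDH+ and 10.16 in ALDH- cells on the first array, and 8.98 and 10.16 on the second. ALDH- cells had more than 1 log2 unit more signal on both arrays, and the mean ratio was -1.25 ± 0.09, or 2.38-fold lower. It ranked 28 of 13718 counted from the lowest ratio. The other measured CXC ligands differed little: CXCL16 had a mean log2 ratio of 0.20, CXCL12 0.13 and CXCL5 -0.10. In all, 7 of the 14 CXC ligands were measured.

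CXCL8, CXCL6, CXCL1, CXCL5, CXCL3 and CXCL2 lie in this order in the CXC chemokine cluster of chromosome 4, by the hg19 positions of their probes. CXCL5 stands between CXCL1 and CXCL2 and had a log2 ratio of 0.00 on the first array and -0.20 on the second, while CXCL6 and CXCL3 were not measured. Higher signal was thus not shared by every measured gene of the cluster. CXCR1 and CXCR2, the receptors of these ligands, were not measured in either population. CXCR4, the receptor of CXCL12, had log2 intensities of 11.63 in ALDH+ and 11.45 in ALDH- cells on the first array and 11.60 and 11.55 on the second. Its mean log2 ratio was 0.12, with the same sign on both arrays.

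Of 25 CC ligands 3 were measured, none past 1.5-fold. CCL24 (eotaxin-2), which attracts eosinophils, had log2 ratios of 0.28 and 0.23, CCL15 -0.11 and 0.31, and CCL16 -0.26 and -0.22. Of the CC receptors, CCR6, the receptor of CCL20, had log2 ratios of -0.41 and -0.21, lower in ALDH+ cells on both arrays and within 1.5-fold.

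**Figure D2:**
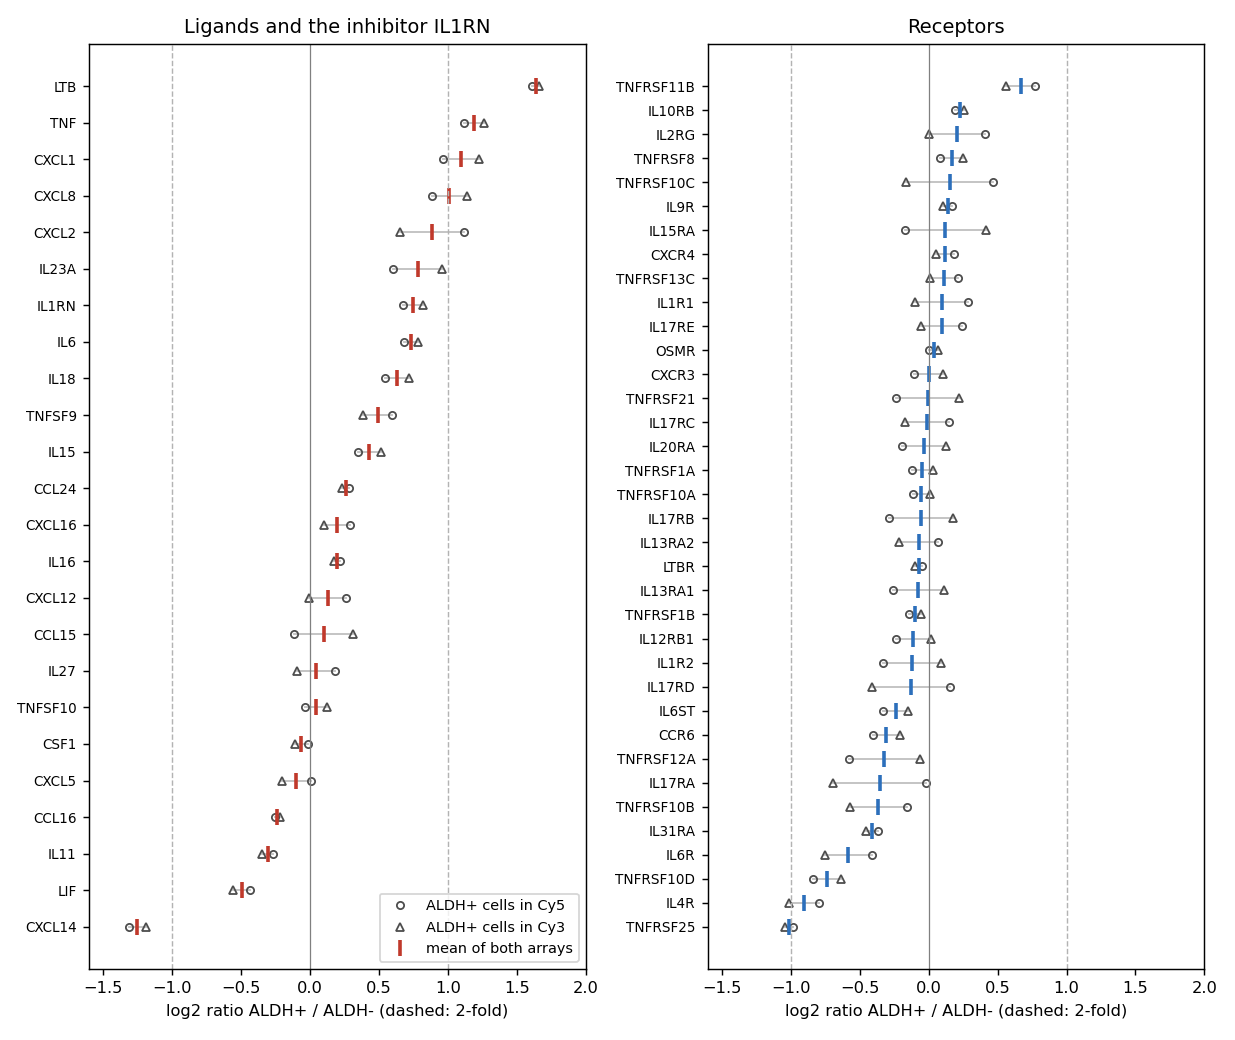
Log2 ratios of ALDH+ to ALDH- cells of the measured genes, with ligands and the inhibitor IL1RN on the left and receptors on the right. Circles show the array with ALDH+ cells in Cy5, triangles the array with ALDH+ cells in Cy3, and bars their mean. The left panel reaches 1.64 (LTB) with 4 means above the dashed line at 1, whereas no receptor mean lies above 0.67 (TNFRSF11B).

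In the interleukin 6 and interleukin 12 families, ligands differed in opposite directions. IL6 had log2 intensities of 13.19 in ALDH+ and 12.51 in ALDH- cells on the first array, and of 13.28 and 12.50 on the second. ALDH+ cells were higher on both arrays by a mean of 0.73 ± 0.07, or 1.66-fold. IL23A, the p19 subunit of interleukin 23, had 11.51 and 10.91 on the first array and 11.72 and 10.77 on the second, a mean of 0.78 ± 0.25. LIF, leukemia inhibitory factor, was lower in ALDH+ cells, at 10.88 against 11.31 on the first array and 10.74 against 11.30 on the second, a mean of -0.50 that does not reach 1.5-fold. IL6, IL23A and LIF each kept their direction on both arrays. IL11 was well above background on both arrays in ALDH- cells but on 1 in ALDH+ cells, so it was measured through the population where it was higher. Its log2 ratio was -0.31, with -0.49 at an offset of 10 and -1.12, past 2-fold, with the software's ratio.

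The receptor subunits of this family were level or lower. IL6R, the subunit that binds interleukin 6, had 7.43 in ALDH+ and 7.84 in ALDH- cells on the first array, and 7.38 and 8.13 on the second. Its mean of -0.58 ± 0.24 lay just short of 1.5-fold, which it passed with an offset of 10 (-0.73) and with the software's ratio (-0.99). IL6ST, the signal transducer shared by IL6, LIF and IL11, had 6 measured probes whose mean log2 ratios ran from -0.24 to 0.06, so its probes did not agree in sign. OSMR, the oncostatin M receptor, had a mean of 0.04, and IL31RA, like IL11 dim in ALDH+ cells on 1 array, had -0.41, with -0.68 at an offset of 10 and -0.86 with the software's ratio.

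Of the interleukin 1 family, IL18, an inducer of interferon gamma, had log2 intensities of 10.51 in ALDH+ and 9.97 in ALDH- cells on the first array, and of 10.58 and 9.86 on the second. ALDH+ cells were higher on both arrays by a mean of 0.63 ± 0.13, or 1.55-fold. IL18R1, its receptor, was not measured. IL1RN encodes the interleukin 1 receptor antagonist, which blocks IL1R1. Its brightest probe had 8.60 and 7.93 on the first array and 8.56 and 7.74 on the second, a mean ratio of 0.75 ± 0.11. Another measured IL1RN probe had ratios of -0.09 and 0.05, so the higher level rests on 1 of the measured probes. IL1R1 itself had a ratio of 0.29 on the first array and -0.10 on the second.

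IL4R, the receptor subunit of interleukins 4 and 13, had log2 intensities of 11.45 in ALDH+ and 12.25 in ALDH- cells on the first array, and of 11.37 and 12.39 on the second. ALDH- cells were higher on both arrays, the mean ratio was -0.91 ± 0.15, and it stood just short of 2-fold. IL13RA1, its partner in the interleukin 13 receptor, had ratios of -0.26 and 0.11, with a mean that changed sign with median centering (-0.07 and 0.08). With that centering the median of all measured genes was 0.073. IL4 was not measured. IL15, a growth factor of lymphocytes, had ratios of 0.35 and 0.51. The brightest IL15RA probe had -0.17 and 0.42, and another measured IL15RA probe, nearly as bright, had 0.27 and 0.28.

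Of 6 interleukin 17 receptors 5 were measured and of 6 interleukin 17 ligands none was. The brightest probe of IL17RA, the common subunit, had log2 ratios of -0.02 on the first array and -0.69 on the second. It had the poorest agreement of the arrays among the probes that stood for the 61 genes, whereas another measured IL17RA probe had -0.11 and -0.06. IL17RC, IL17RB, IL17RE and IL17RD each changed sign between the arrays.

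**Figure D3:**
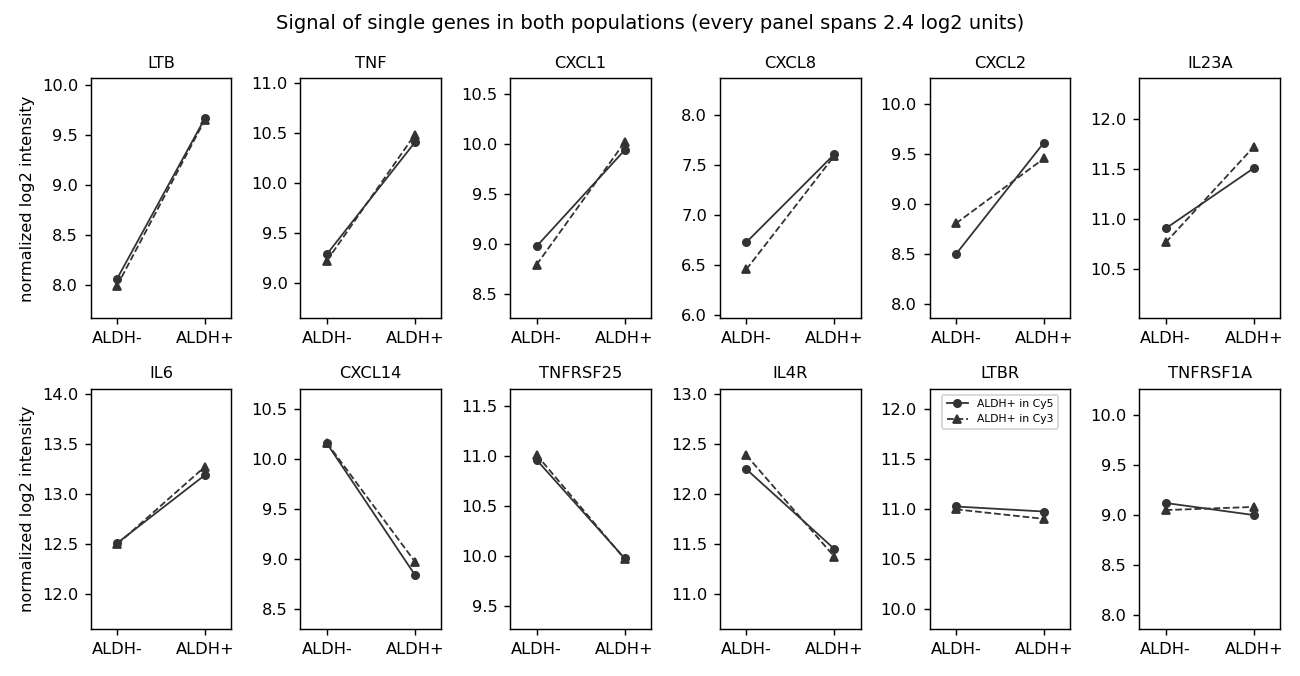
Normalized log2 intensity of 12 genes in ALDH- and ALDH+ cells, with a line for each array (circles and solid lines, ALDH+ cells in Cy5; triangles and dashed lines, ALDH+ cells in Cy3). Every panel spans the same range, so slopes can be compared, while levels of different probes cannot. Lines rise for the first 7 genes, fall for CXCL14, TNFRSF25 and IL4R, and are nearly flat for LTBR and TNFRSF1A.

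Ligands were set beside their receptors in 47 pairs, in 10 of which both genes were measured. TNFRSF11B, the one measured receptor more than 1.5-fold higher, was in none of the pairs. LTB at 1.64 stood beside LTBR at -0.07, and TNF at 1.19 beside TNFRSF1A at -0.04. IL6 at 0.73 stood beside IL6R at -0.58 and IL6ST at -0.24. That was the lowest of the 6 measured IL6ST probes, and the highest was 0.06. CXCL12 and CXCR4 had means of 0.13 and 0.12, IL15 and IL15RA 0.43 and 0.12, and IL1RN and IL1R1 0.75 and 0.09. Of these, CXCL12, IL1R1 and the brightest IL15RA probe changed sign between the arrays. The other measured IL15RA probe was above 0 on both. For CXCL1, CXCL2 and CXCL8 the receptor could not be set beside the ligand, since it was not measured.

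Promoter sequences are shown for members with a match to the κB consensus, the sequence bound by NF-κB, because TNF, interleukin 6 and the CXCR2 ligands are known targets of this factor. The consensus was searched on both strands from 250 bases before to 50 after each start, in RefSeq promoters (GRCh38.p14). The 50 bases around a match are printed in the sense of the gene, with the match in capitals, for 5 members that were higher in ALDH+ cells and for IL4R, which was lower.
LTB: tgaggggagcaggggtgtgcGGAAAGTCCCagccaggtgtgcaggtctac
CXCL1: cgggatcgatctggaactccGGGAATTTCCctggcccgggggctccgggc
CXCL2: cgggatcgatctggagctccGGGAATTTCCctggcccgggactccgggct
IL6: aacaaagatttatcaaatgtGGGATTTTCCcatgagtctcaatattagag
IL23A: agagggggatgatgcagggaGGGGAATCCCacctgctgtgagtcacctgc
IL4R: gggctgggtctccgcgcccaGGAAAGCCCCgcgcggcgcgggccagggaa
The LTB stretch lies at chr6:31582482-31582531 (minus strand), CXCL1 at chr4:73869294-73869343 (plus), CXCL2 at chr4:74099244-74099293 (minus) and IL6 at chr7:22727107-22727156 (plus). IL23A lies at chr12:56338769-56338818 (plus) and IL4R at chr16:27313904-27313953 (plus). For LTB and IL4R the match is read on the opposite strand. The matches began 86, 79, 78, 73, 95 and 50 bases before the start of LTB, CXCL1, CXCL2, IL6, IL23A and IL4R.

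The paralogs CXCL1 and CXCL2 carried the same 10 letters at nearly the same distance from the start. The κB consensus was in 10.8% of 27305 promoters, the first listed for each gene. Of the 10 members more than 1.5-fold higher, 8 had a promoter in the table, and the consensus was in 5 of these. Of 43 measured members with a promoter 9 held it, among them CXCL5 and IL6ST, which were within 1.5-fold, and TNFRSF25 and IL4R, which were lower. TNF, CXCL8 and IL1RN did not hold these letters in this window. A match describes letters only, and no binding was measured.

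Genes that carry the signal of these receptors are given next, to be read beside the 1.51% of all measured genes more than 1.5-fold higher and the 4.59% lower. Of 30 genes of TNF and interleukin 1 receptor signaling, 28 were measured, of which 1 was more than 1.5-fold higher and none lower. The median was -0.030, and 0.059 with median centering, against 0.073 for all measured genes in that setting. IRAK2, a kinase of the interleukin 1 receptor complex, was the one higher, with ratios of 0.68 and 0.84. TNFAIP3, an NF-κB target that restrains the pathway, had 0.53 and 0.18. RIPK1, the kinase recruited to TNFRSF1A, had a mean of -0.44, and the adaptor TRAF2 -0.04.

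Of 25 genes of the JAK-STAT pathway and its SOCS inhibitors 19 were measured, with 1 more than 1.5-fold higher and 1 lower. Their median of -0.080 became 0.019 with median centering, against 0.073 for all measured genes in that setting. SOCS2, an inhibitor of cytokine receptors, was higher (0.44 and 0.74) and PTPN11, the phosphatase SHP2, lower (-0.67 and -0.53), but with median centering PTPN11 had -0.46 and did not pass 1.5-fold. SOCS3, a STAT3 target that blocks gp130, had a mean of -0.47, and STAT3 -0.03. Of 30 genes of chemokine receptor signaling 21 were measured, with 1 more than 1.5-fold higher, 1 lower and a median of 0.13. On both arrays 11 of the 21 (52.4%) were above 0 and 3 (14.3%) below, against 33.7% and 36.1% of all measured genes. Of the 19 JAK-STAT genes 3 (15.8%) were above and 11 (57.9%) below. Of the 28 genes of TNF and interleukin 1 receptor signaling 6 (21.4%) were above and 12 (42.9%) below. RGS2, which shortens G protein signals, had 0.93 and 0.82, and VAV2, an exchange factor of Rac, -0.55 and -0.65. RGS2 had 1.52 with the software's ratio, and VAV2 had -0.46 with median centering and did not pass 1.5-fold.

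Of 59 other cytokines and receptors, outside the naming rule, 23 were measured, with 1 more than 1.5-fold higher and 1 lower. KITLG, stem cell factor and ligand of the receptor KIT, was higher, with ratios of 1.00 and 0.71. With the software's ratio KITLG had 1.70. LEPR, the leptin receptor, was lower, with -0.91 and -0.69, but had -0.46 with median centering, which does not pass 1.5-fold. The death receptor FAS had a mean of 0.56.

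The labeled cell type was compared with its markers. All 12 markers of epithelium and clear cell carcinoma were measured, with PAX8 (-0.74) and SPP1 (-0.60) more than 1.5-fold lower in ALDH+ cells and the highest ratio at 0.30 (MUC1). With median centering neither passed 1.5-fold (PAX8 -0.42, SPP1 -0.16), and KRT19 did, at 0.62. Of 15 leukocyte markers 6 were measured, with mean log2 ratios from -0.29 (CD79A) to 0.45 (CD14) and a median of -0.11, and PTPRC, the pan-leukocyte marker CD45, at 0.04. Of 10 fibroblast and endothelial markers 1 was measured. None of the leukocyte markers passed 1.5-fold as reported, whereas CD14, higher in ALDH+ cells on both arrays, had 0.70 with the software's ratio and passed it. Their part in the ratios of the cytokines was not tested.

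Around the 2-fold threshold lay CXCL8 (1.01) and TNFRSF25 (-1.01) just inside, and IL4R (-0.91) and CXCL2 (0.88) just outside. LTB, TNF and CXCL14 passed 2-fold on each array alone. They also passed it under each processing alternative tried.

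**Figure D4:**
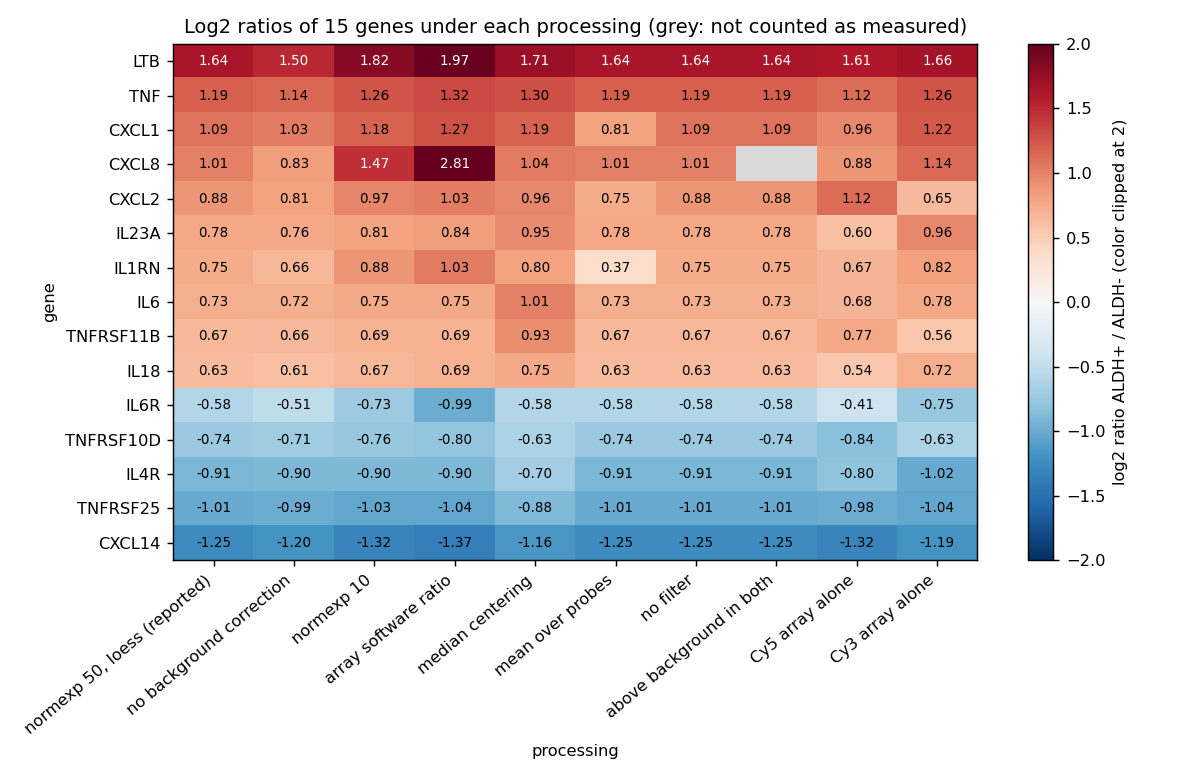
Mean log2 ratio of ALDH+ to ALDH- cells of 15 genes (rows) under each processing (columns), with red for higher and blue for lower in ALDH+ cells. Within a row the sign is the same in all columns, LTB runs from 1.5 to 1.97, and CXCL8 varies most, from 0.83 to 2.81. Genes past 1.5-fold were named only with the same sign on both arrays, so their single-array columns could not differ in sign.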

How the data were processed

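On 2 dye-exchanged Agilent arrays, RNA of sorted RMG1 cells was compared, ALDH+ against ALDH-. The authors deposited, for each array, the spot intensity and local background read by Feature Extraction (10.7.3.1 in the file headers, 8.5.1.1 in the submitters' processing notes) without normalization. They also deposited the software's log10 ratio, for which it had subtracted background and normalized the dyes, and which served as an alternative. A table that joins both arrays was not used.

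Mean signals were corrected with normexp (offset 50, which compresses ratios of dim probes) and loess within each array in R 4.3.3 with limma 3.58.1. Control spots and outlier spots (531 and 519 gene spots) were given no weight. Spots of a probe were averaged, a probe was well above background where more than 50% of its spots were, and the log2 ratios, turned to ALDH+ over ALDH- cells, were averaged over the arrays. The median negative control signal was 135.2 and 127.2 in Cy3, against local backgrounds of 38.5 and 36, and 45.1 and 43.1 in Cy5, against 39.5 and 39. Values were collected and drawn with pandas 2.3.3, numpy 2.4.6 and matplotlib 3.10.9 in Python 3.11.15. Normalization and averaging were tested on simulated data. RefSeq tables (GRCh38.p14) named 238 of the 245 probes by accession, and 11 genes were renamed. Precision is limited by the number of arrays, and the spread between sorts is unknown.

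Genes named in the text were those with a mean ratio past 1.5-fold and the same sign on both arrays, the 6 brightest ligands and 6 brightest receptors, the partners of the former, and genes whose measured probes were more than 0.5 log2 units apart. Other measured genes are given by their values to complete a family and were chosen after their values were seen. Members and gene lists were chosen with earlier results of these data known. One entry of the list of other cytokines was corrected after values were seen. The alternatives were no background correction, an offset of 10, the software's log ratio, median centering, the mean over probes, no filter on dim probes, a filter on both populations, each array alone and a threshold of 1.5-fold. Their use on the gene lists was added after seeing the data. Values of 1 measured receptor are not reported here, and it is left out of the plot of ligands and receptors by name.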

Additional observations from a re-analysis of the deposited data

How the results depend on the processing

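No paired analysis was possible because each population had a single sample and nothing was tested. Of members past 2-fold, 2 were lower in ALDH+ cells as reported, against 1 with no background correction, 1 with median centering, 3 with the software's ratio (IL11 added) and 1 to 3 on single arrays. The 4 higher became 3 to 6 under the alternatives at 2-fold (CXCL2 passed and CXCL1 and CXCL8 did not on the first array alone), and at 1.5-fold 10 were higher and 4 lower. The ligand median of 0.20 was 0.30 with the software's ratio, 0.28 with median centering, 0.26 with the mean over probes, 0.024 with no filter and 0.23 to 0.28 on single arrays. With median centering the median log2 ratio of all genes rose to 0.073, with 53 genes higher and 45 lower against 29 and 97, and the medians were 0.059 for TNF and interleukin 1 receptor signaling, 0.019 for JAK-STAT and 0.23 for chemokine receptor signaling. Single arrays gave -0.064 to -0.031, -0.17 to -0.076 and 0.11 to 0.18 for these lists, and -0.051 to 0.080 for other cytokines. With the software's ratio 137 genes of the array were higher and 276 lower. Of 240 alternative values of 27 named genes, 8 had the other sign, none for a gene past 1.5-fold. Part of this was fixed in advance, since genes past 1.5-fold were named only with the same sign on both arrays. The settings that changed only the filter left the value of each named gene they kept unchanged. Signal over background limits what can be said of dim genes such as CXCL8.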
